A study of Homo sapiens with 3 samples.

Results

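The nuclear genes of oxidative phosphorylation were read in chromatin of KBM7, an established near-haploid human cell line from a chronic myeloid leukaemia. Members were all protein-coding RefSeq genes on chromosomes 1 to 22 and X whose symbols begin with NDUFA, NDUFB, NDUFC, NDUFS or NDUFV and a digit, with SDHA to SDHD, UQCR, COX4 to COX8, or ATP5. This gave 87 of 19974 protein-coding genes, among them 2 readthrough records, NDUFC2-KCTD14 and ATP5MF-PTCD1, each of which shares its strongest peaks with a member. The same symbols also matched 182 pseudogenes, 6 long non-coding RNAs and 2 transcribed pseudogenes, which are not members. The cells were wild type and untreated, and grew in IMDM with 10% serum. H3K27ac and H3K4me3 were each immunoprecipitated once, beside 1 input library, so no value has a replicate error and no condition could be compared with another.

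Oxidative phosphorylation takes electrons from NADH and succinate, passes them along complexes I to IV of the inner mitochondrial membrane to oxygen, and uses the resulting proton gradient to drive ATP synthase, complex V. Most subunits are encoded in the nucleus and made in nearly every cell type, and their promoters are classical targets of NRF1, of the ETS factor GABP and of YY1. A few subunits of cytochrome c oxidase, complex IV, exist as alternative isoforms whose use differs between tissues such as heart and skeletal muscle, lung and testis. H3K4me3 marks the start of genes that are open for transcription, and H3K27ac marks active promoters and enhancers.

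For each member and mark the strongest peak within 1 kb of either end of the gene record was taken. The fold is the authors' enrichment at the summit of the peak, and the number of fragments at the summit was recovered from the fold and the p-value of the same row. The lists contain 96659 H3K27ac peaks, whose summits held 21 fragments at the median, and 36951 H3K4me3 peaks, whose summits held 39. All 7 myeloid marker genes had both marks at an end, but so did 3 of 3 T cell and 2 of 3 B cell genes (background 60.4%). The presence of a peak thus did not separate blood lineages in these lists, nor did the fold. For H3K27ac it was 9.94 to 34.3 at the myeloid genes, 6.62 to 18.2 at the T cell genes and 25.3 to 43.7 at the B cell genes. For H3K4me3 the ranges were 12.2 to 85.6, 5.90 to 29.1 and 10.6 to 92.6. Intervals on fragments are exact 95% Poisson intervals and cover counting error only.

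Of the 87 genes, 77 had both marks at an end (88.5%), against 60.4% of all protein-coding genes. H3K27ac was found at 78 genes (background 63.2%) and H3K4me3 at 77 (background 66.7%). COX7A2L had H3K27ac alone, a state found at 2.84% of all genes, and H3K4me3 alone was found at 0 members and 6.35% of all genes. The 9 genes with neither mark at an end were NDUFA5, UQCRHL, COX4I2, COX6A2, COX7A1, COX7A2, COX7B2, ATP5MC2 and ATP5MGL (background 30.4%). When the whole gene record with 1 kb on each side was searched, 81 genes (93.1%) had both marks, against 67.3% of all genes. The 6 genes that still lacked a mark were 4 tissue-restricted isoforms of complex IV, COX4I2, COX6A2, COX7A1 and COX7B2, and the derived copies UQCRHL and ATP5MGL. Without the 6 restricted isoforms and the 2 derived copies, 75 of 79 genes had both marks at an end and 79 of 79 in the gene record.

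Among members with a peak, the median H3K27ac fold was 25.2 (interquartile range 21.1 to 30.8), against 22.95 (15.1 to 30.4) over all protein-coding genes with a peak. The median H3K4me3 fold was 70.7 (57.5 to 80.3) for the members and 63.0 (47.8 to 75.1) for all genes. The members were thus near the middle of the H3K27ac range of marked genes and somewhat above the middle for H3K4me3: 59.0% and 68.8% of them exceeded the median of all marked genes. Low folds were rarer than in all marked genes, with 6.41% of the members below the 25th percentile for H3K27ac and 14.3% for H3K4me3. Above the 75th percentile were 28.2% for H3K27ac and 36.4% for H3K4me3. Peak widths were close to those of all marked genes, with medians for H3K27ac of 1879 bp in the members and 1818 bp in all genes, and for H3K4me3 of 2753 bp in the members and 2555 bp in all genes. Across the 77 members with both marks the folds of the marks went together loosely (Pearson's r 0.388, Spearman's rho 0.413). Over all 12062 genes with both marks r was 0.463 and rho was 0.444. Genes are not replicates, and the expected backgrounds of the 2 lists were themselves related over the members (rho 0.657).

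**Figure D1:**
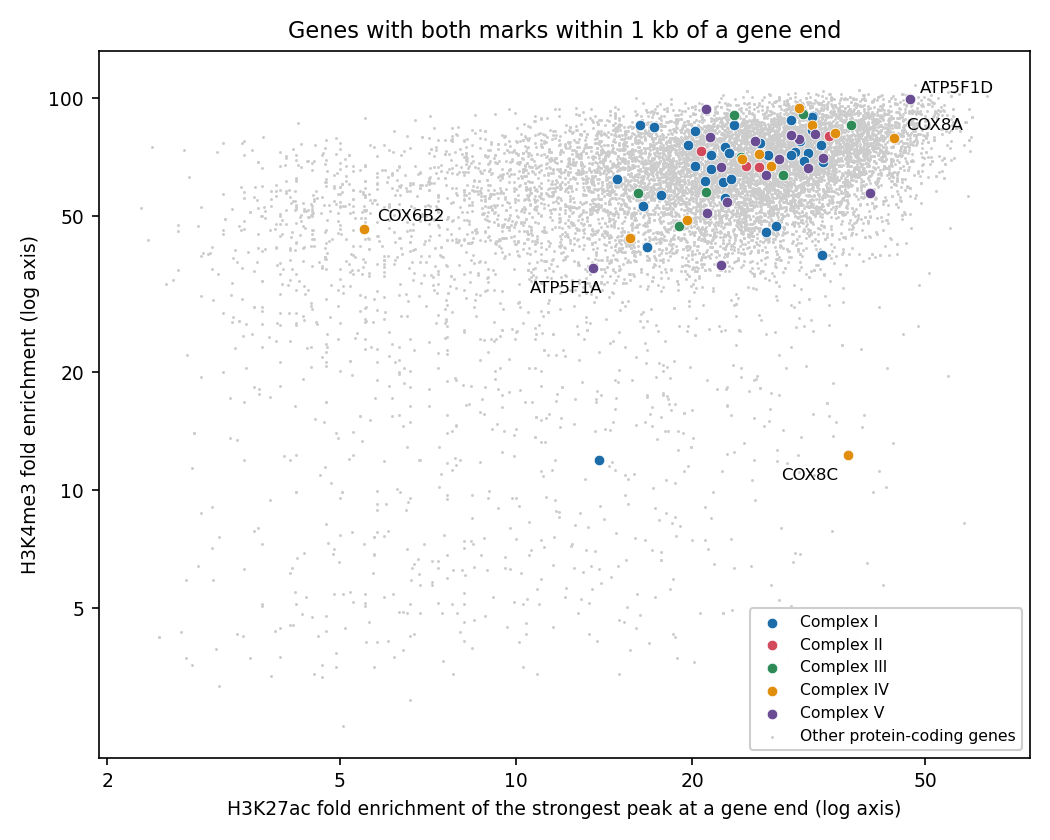
H3K27ac fold (horizontal, log axis) against H3K4me3 fold (vertical, log axis) for every protein-coding gene with both marks within 1 kb of a gene end, with the 77 members coloured by complex and other genes in grey. Most members lie in the dense upper right, while COX6B2 (H3K27ac fold 5.51) and COX8C (H3K4me3 fold 12.3) stand away from them.

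Complex I, the NADH dehydrogenase that passes electrons to ubiquinone, had both marks at an end of 36 of 37 genes (background 60.4%). In the gene record 37 of 37 had both (background 67.3%). The median folds were 23.2 for H3K27ac and 71.7 for H3K4me3. The highest H3K27ac fold was that of NDUFV2, an iron-sulphur subunit of the module that oxidises NADH, with 33.5 and 156 fragments at the summit. NDUFV1, which binds NADH and the flavin cofactor in the same module, was at the other side of the range with an H3K27ac fold of 17.7 and 97 fragments in an interval of 951 bp. NDUFS1, which also carries iron-sulphur clusters there, had an H3K27ac fold of 23.1 and an H3K4me3 fold of 72.3. These 3 genes all had both marks, with H3K4me3 folds of 68.9 for NDUFV2 and 56.8 for NDUFV1.

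The arm of complex I that hands electrons to ubiquinone includes NDUFS3, NDUFS7 and NDUFS8. NDUFS3 had folds of 31.0 for H3K27ac and 69.3 for H3K4me3, in intervals that also hold an end of KBTBD4. NDUFS7 had 23.3 and 62.1. NDUFS8 had an H3K27ac fold of 29.5, but that interval of 6403 bp also holds an end of TCIRG1. At the listed start of NDUFS8 itself the H3K27ac fold was 19.9 with 106 fragments, and the H3K4me3 fold was 71.6.

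The accessory subunits of complex I spread over the same range. NDUFA13 had the highest H3K4me3 fold of the complex, 90.3 with 263 fragments, in an interval that also holds an end of TSSK6. NDUFB10 followed with 89.7 in an interval shared with an end of RPS2, against 67.3 at its own listed start. NDUFB11 had wide intervals of both marks, 4195 bp of H3K27ac and 4932 bp of H3K4me3, each of which also holds an end of RBM10. NDUFB4 had a narrow H3K27ac interval of 772 bp with a fold of 26.7. NDUFV2 and NDUFS1 had H3K4me3 intervals of 5787 and 5037 bp, the widest of all members after that of UQCRH, and that of NDUFS1 also holds an end of EEF1B2.

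Complex II, succinate dehydrogenase, had both marks at 4 of 4 genes (background 60.4%). SDHA, the flavoprotein that oxidises succinate, had the highest folds, 34.2 for H3K27ac with 129 fragments and 80.3 for H3K4me3 with 284. Both SDHA intervals also hold an end of CCDC127. SDHB, the iron-sulphur subunit, had 20.7 with 86 fragments and 73.3 with 259. The membrane anchors were between these or just below, SDHC at 24.7 and 67.3, and SDHD at 26.03 and 66.9, for H3K27ac and H3K4me3. Both SDHD intervals also hold an end of TIMM8B. All 4 H3K4me3 folds lay above the median of 63.0 over all marked genes.

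Complex III, which passes electrons from ubiquinol to cytochrome c, had both marks at 8 of 9 genes (background 60.4%). The exception was the derived copy UQCRHL. UQCRFS1, the Rieske iron-sulphur protein, had the highest H3K27ac fold, 37.3 with 156 fragments, and an H3K4me3 fold of 85.3. The core protein UQCRC1 had the highest H3K4me3 fold, 91.4 with 281 fragments. UQCRC2, its partner, had the lowest H3K27ac fold, 16.1, although its 176 fragments were more than those of UQCRFS1. The expected background at that summit was 9.97 fragments, against a median of 3.88 over the members outside chromosomes 8 and 15. UQCRH, the hinge protein, had the widest H3K4me3 interval of all members, 6384 bp, and an H3K27ac interval of 4926 bp, and both also hold an end of LRRC41. The H3K4me3 fold was lowest at UQCRB, 47.2, a gene on chromosome 8.

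Complex IV, cytochrome c oxidase, was the least complete of the complexes, at shares near or above those of all protein-coding genes. Both marks were at 11 of 17 genes at the ends (64.7%, background 60.4%). In the gene record both marks were at 13 of 17 (76.5%, background 67.3%). COX8A had the highest H3K27ac fold of the complex, 44.3 with 215 fragments, and COX7C the highest H3K4me3 fold, 94.3 with 290 fragments. COX5B had a high H3K27ac fold of 32.1 in a narrow interval of 712 bp. COX5A had the most fragments of all members for both marks, 249 for H3K27ac and 331 for H3K4me3, on chromosome 15. The 4 genes without both marks in the record were all tissue-restricted isoforms.

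Complex V, ATP synthase, had both marks at 18 of 20 genes at the ends (background 60.4%). In the gene record 19 of 20 had both (background 67.3%). ATP5F1D, the delta subunit of the central stalk, had the highest folds of all members, 47.1 for H3K27ac with 178 fragments and 99.6 for H3K4me3 with 290. Of all genes with H3K27ac 98.2% had a lower fold, and of all genes with H3K4me3 99.4%. The expected backgrounds at ATP5F1D were 2.80 and 1.92, at the lowest level over all marked genes. By fragments it was not the highest, since COX5A had 249 and 331. ATP5F1B, the catalytic beta subunit, had folds of 26.7 and 63.8. ATP5PF, a subunit of the peripheral stalk, had an H3K27ac fold of 40.3 and an H3K4me3 interval of 4862 bp, and shares both intervals with an end of GABPA, which encodes the DNA-binding subunit of GABP. ATP5MJ, a small membrane subunit, had the widest H3K27ac interval of all members, 7709 bp, with a fold of 21.1, beside an H3K4me3 interval of 2757 bp with a fold of 93.6. ATP5F1E, the epsilon subunit, had a narrow H3K4me3 interval of 1524 bp with a fold of 66.3.

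**Figure D2:**
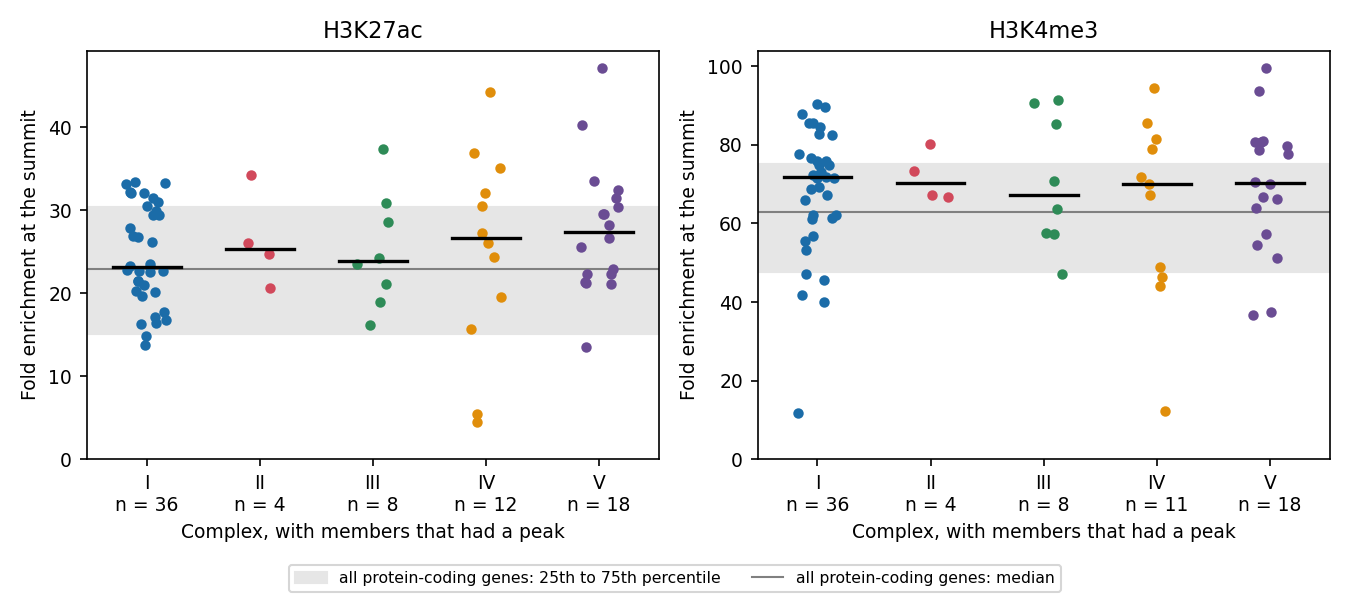
Fold enrichment at the summit of the strongest peak at a gene end, for H3K27ac (left) and H3K4me3 (right), one point per member, grouped by complex, with a black bar at the complex's median. The grey band and line give the 25th to 75th percentile and the median over all protein-coding genes with a peak. The complexes' medians lie between 23.2 and 27.4 for H3K27ac and between 67.3 and 71.7 for H3K4me3, and complex IV has the lowest single H3K27ac folds.

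Several ubiquitous subunits that were unmarked or weak at the gene ends had their strongest peaks at a start inside the record. RefSeq listed 83 start sites for 70 of the members. NDUFA5, an accessory subunit of complex I, has a listed start at chr7:123557818 that lies 20821 bp from the nearer end of the record. There the H3K27ac interval of 892 bp had a fold of 28.2 with 108 fragments, and the H3K4me3 interval of 2072 bp had a fold of 84.9 with 251. No peak of either mark lay within 1 kb of the outer NDUFA5 starts at positions 123601611 and 123601651.

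COX7A2, the widely expressed isoform of its complex IV subunit, was marked at the start 6126 bp inside the record, where the H3K27ac fold was 19.0 and the H3K4me3 fold 69.3, and not at the outer start. COX7A2L, which helps join complexes III and IV into supercomplexes, had folds of 31.2 and 61.5 at a start 7740 bp inside. Its outer start had the weak H3K27ac interval that made it the one member with H3K27ac alone, with a fold of 4.51, 21 fragments and a width of 311 bp. ATP5MC2, which encodes a c-ring subunit, had its marks at a group of 3 inner starts, with folds of 21.0 and 54.9.

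ATP5F1A, the alpha subunit of ATP synthase, was marked at both of its listed starts. At its outer end, in intervals shared with an end of HAUS1, the folds of 13.5 for H3K27ac and 36.8 for H3K4me3 were the lowest of complex V. At the inner start 5931 bp away the folds were 35.8 and 68.0. The H3K27ac summits of both ATP5F1A starts held 135 fragments, and the expected background was 9.07 at the outer end and 2.80 at the inner start. The lower fold at the outer end therefore came with a higher background and not with fewer fragments.

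**Figure D3:**
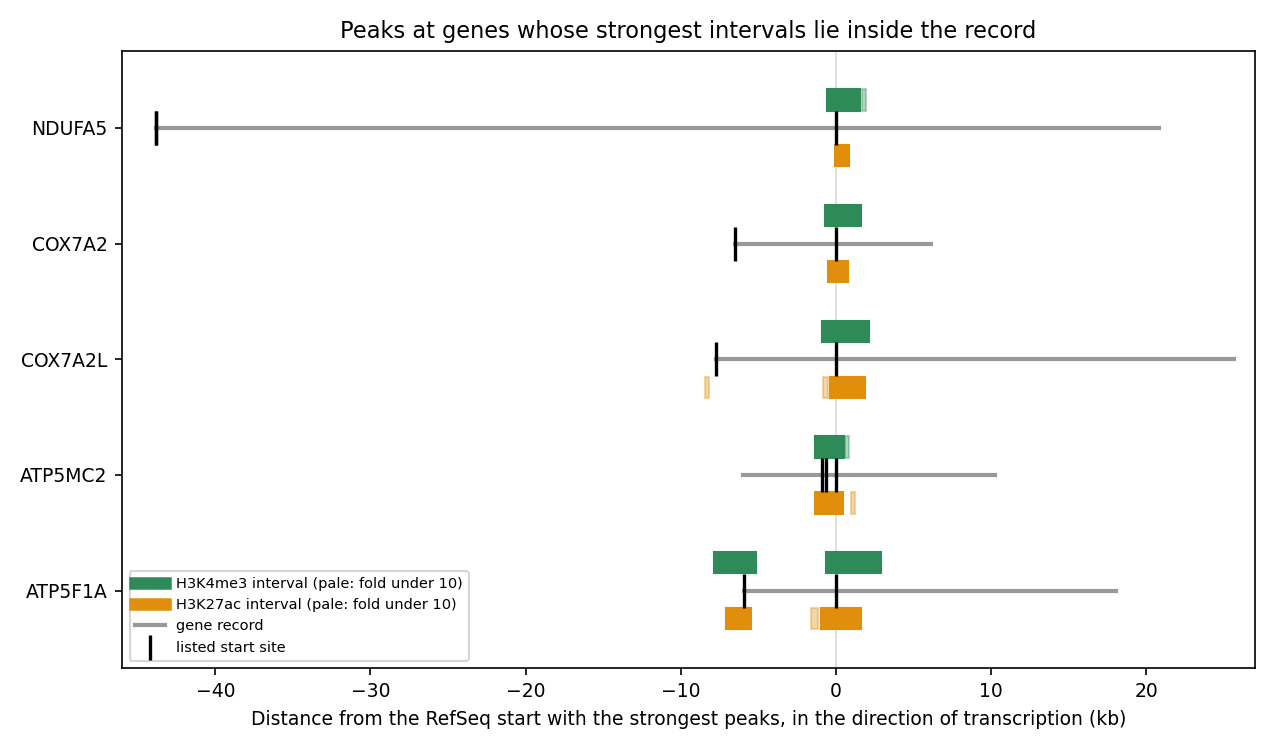
H3K4me3 (green) and H3K27ac (orange) intervals at 5 members whose strongest peaks lie inside the gene record (grey line), by distance in kb from the listed start with the strongest peaks, in the direction of transcription, with listed starts as black ticks and intervals of fold under 10 drawn pale. NDUFA5 and COX7A2 have no interval at the outer start, COX7A2L has a pale H3K27ac interval there, ATP5F1A has intervals of both marks there, and the 3 starts of ATP5MC2 lie together.

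Relative to the listed starts, 68 of 70 members had both marks within 1 kb, all but COX6A2 and COX7B2. The share was 63.3% over 15812 protein-coding genes with a listed start. COX4I2, COX7A1, UQCRHL and ATP5MGL, unmarked in the gene record, have no listed start and so are not among the 70. The H3K27ac summit lay downstream of the start in 55 of 68 members (background 66.8% of genes with a peak there), with a median offset of 181 bp (interquartile range 131 to 214 bp) and of 166 bp over all genes. The H3K4me3 summit lay downstream in 56 of 68 (background 79%), with a median offset of 274.5 bp (156.5 to 376 bp) and of 228 bp over all genes. The H3K4me3 interval covered the start in 68 of 68 members (background 93.5%) and the H3K27ac interval in 64 of 68 (background 78.4%). In most of these members, as in most marked genes, the intervals thus sat over the start with the summit on its transcribed side.

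The alternative isoforms of complex IV were set against their ubiquitous counterparts. Both marks were found at 2 of 6 restricted isoforms, at the ends and in the record alike, against 5 of 6 counterparts at the ends and 6 of 6 in the record, where 60.4% and 67.3% of all genes had both. With 6 pairs and 1 library per mark these are counts, with no test.

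The heart and skeletal muscle isoforms were unmarked. COX6A2 had no peak of either mark at its ends, and the nearest lay 14192 bp away for H3K27ac and 14032 bp for H3K4me3. Its counterpart COX6A1 had an H3K27ac fold of 15.7 with 100 fragments (81.4 to 122) and an H3K4me3 fold of 44.1 with 208 (181 to 238). COX7A1 had no peak within 9316 bp for H3K27ac or 9075 bp for H3K4me3. COX7A2 had 104 H3K27ac fragments (85.0 to 126) and 237 H3K4me3 fragments (208 to 269) at its inner start. COX6A1, at 26.5% of marked genes with a lower H3K27ac fold, was the weakest of the counterparts for both folds.

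The isoform known from lung, COX4I2, had no peak of either mark within 15419 bp. COX4I1 had an H3K27ac fold of 35.1 with 140 fragments (118 to 165) and an H3K4me3 fold of 81.5 with 288 (256 to 323), in intervals that also hold an end of EMC8.

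The 3 testis isoforms differed from one another. COX7B2 was the most isolated of the pairs, with the nearest H3K27ac peak 533500 bp away and the nearest H3K4me3 peak 122077 bp away, while COX7B had folds of 26.03 with 126 fragments and 71.9 with 250. COX6B2 had an H3K4me3 fold of 46.4 with 161 fragments (137 to 188) in an interval of 1501 bp that also holds an end of GARIN5B. Its H3K27ac interval was the narrowest of all members, 224 bp, with a fold of 5.51 and 24 fragments (15.4 to 35.7). COX6B1 had 126 H3K27ac fragments (105 to 150) with a fold of 24.3, and 288 H3K4me3 fragments (256 to 323) with a fold of 70.0. The counting intervals of COX6B2 and COX6B1 did not overlap for either mark. Fragments differed widely over all marked genes, with interquartile ranges of 80 to 159 for H3K27ac and 210 to 278 for H3K4me3. The share of gene pairs without overlap was not counted, so the lack of overlap does not set this pair apart.

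COX8C was marked differently from COX6B2. It had an H3K27ac fold of 37.0 with 170 fragments (145 to 198), higher than that of 89.0% of marked genes, in an interval of 7584 bp that ran between -4507 and 3076 bp relative to its start. Its H3K4me3 fold was 12.3 with 44 fragments (32.0 to 59.1) in 1133 bp, and 5.30% of marked genes had a lower one. The gene lies inside the record of UNC79, so its H3K27ac cannot be told apart from an element of that gene. COX8A had 215 H3K27ac fragments (187 to 246) with a fold of 44.3, and 275 H3K4me3 fragments (243 to 309.5) with a fold of 79.1. The counting intervals of COX8C and COX8A overlapped for H3K27ac and not for H3K4me3, which likewise does not set the pair apart from other genes. By rank within each list COX6B2 was low for both marks. A lower fold than that of COX6B2 was found at 6.40% of marked genes for H3K27ac and 23.4% for H3K4me3. COX8C was high for H3K27ac and low for H3K4me3.

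Derived copies were unmarked as well. UQCRHL, an intronless copy of UQCRH, had no peak within 21770 bp, against folds of 28.6 and 63.8 at UQCRH. ATP5MGL, a copy of ATP5MG that lies inside the record of CYB5R3, had its nearest H3K27ac peak 1571 bp away, an interval of 5181 bp, while ATP5MG had folds of 32.5 and 81.0. How reads were placed between near-identical copies was not stated, so the absence of a peak at these copies is uncertain. COXFA4L2 and COXFA4, earlier named NDUFA4L2 and NDUFA4 and outside the symbol rule, both had both marks, with H3K27ac folds of 12.6 and 38.6 and H3K4me3 folds of 52.5 and 77.9.

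**Figure D4:**
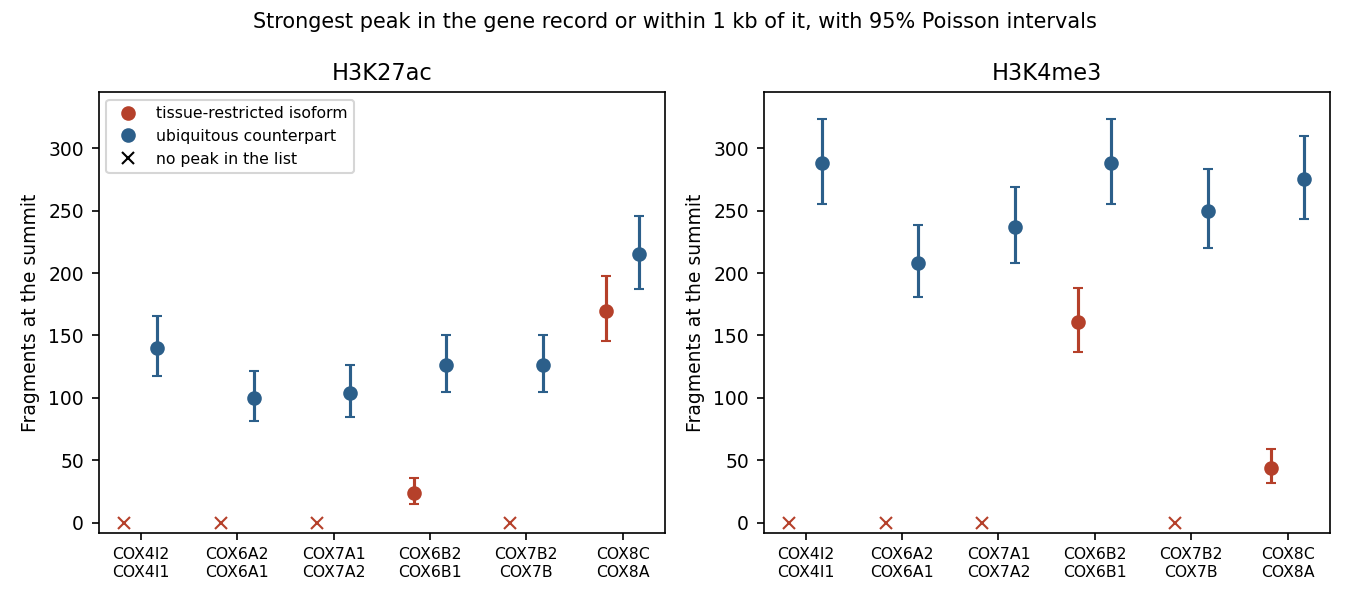
Fragments at the summit of the strongest H3K27ac peak (left) and H3K4me3 peak (right) in the gene record or within 1 kb of it, for 6 tissue-restricted isoforms (red, left of each pair) and their ubiquitous counterparts (blue), with exact 95% Poisson intervals; a cross at 0 means that the list has no peak there. COX4I2, COX6A2, COX7A1 and COX7B2 have no peak of either mark, COX6B2 has 24 and 161 fragments, and COX8C has 170 and 44.

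The sequences before the starts of these isoforms are shown because the pairs differ in their marks. They are the 250 bases that precede the RefSeq start (GRCh38.p14), read 5′ to 3′ on the strand of the gene, with capitals for the motif letters that were searched on both strands: GCATGCG for NRF1, CCGGAAG for ETS factors such as GABP, ATGGCGG for YY1, GGGCGG for SP1, CCAAT for NFY and TATAAA for the TATA box. Restricted and ubiquitous members of a pair follow each other, and COX7A2 is shown at its marked inner and its unmarked outer start.
COX8C, chr14:93346932-93347181, plus strand: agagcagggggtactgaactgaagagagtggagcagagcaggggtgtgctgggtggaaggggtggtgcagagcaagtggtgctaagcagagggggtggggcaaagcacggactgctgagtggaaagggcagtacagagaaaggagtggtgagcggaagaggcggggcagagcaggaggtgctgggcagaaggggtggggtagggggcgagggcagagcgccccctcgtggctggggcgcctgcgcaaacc
COX8A, chr11:63974370-63974619, plus strand: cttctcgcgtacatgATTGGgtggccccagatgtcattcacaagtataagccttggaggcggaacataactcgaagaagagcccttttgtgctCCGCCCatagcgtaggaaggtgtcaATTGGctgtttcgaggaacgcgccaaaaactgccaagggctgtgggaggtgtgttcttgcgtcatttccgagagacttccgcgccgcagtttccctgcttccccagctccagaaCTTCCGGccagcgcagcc
COX6B2, chr19:55354720-55354969, minus strand: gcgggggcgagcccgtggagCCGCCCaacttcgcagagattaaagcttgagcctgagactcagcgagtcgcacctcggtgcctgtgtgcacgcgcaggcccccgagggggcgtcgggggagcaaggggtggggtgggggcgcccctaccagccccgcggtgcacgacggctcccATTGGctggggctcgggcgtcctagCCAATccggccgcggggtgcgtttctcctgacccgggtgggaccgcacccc
COX6B1, chr19:35648073-35648322, plus strand: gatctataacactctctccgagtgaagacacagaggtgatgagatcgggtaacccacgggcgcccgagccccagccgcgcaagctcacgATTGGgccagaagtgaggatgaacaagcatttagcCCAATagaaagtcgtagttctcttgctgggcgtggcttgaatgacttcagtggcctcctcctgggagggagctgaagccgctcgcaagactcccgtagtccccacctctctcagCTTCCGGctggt
COX6A2, chr16:31428361-31428610, minus strand: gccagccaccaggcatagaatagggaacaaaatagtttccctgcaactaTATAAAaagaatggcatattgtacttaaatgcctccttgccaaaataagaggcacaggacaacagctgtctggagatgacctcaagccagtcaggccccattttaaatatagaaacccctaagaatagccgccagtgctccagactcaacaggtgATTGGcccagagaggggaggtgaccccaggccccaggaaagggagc
COX6A1, chr12:120437863-120438112, plus strand: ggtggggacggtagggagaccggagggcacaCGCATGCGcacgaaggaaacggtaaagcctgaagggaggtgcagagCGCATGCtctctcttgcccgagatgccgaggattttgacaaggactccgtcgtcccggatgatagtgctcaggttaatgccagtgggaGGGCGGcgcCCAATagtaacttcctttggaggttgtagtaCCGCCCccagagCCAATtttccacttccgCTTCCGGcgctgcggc
COX7B2, chr4:46909246-46909495, minus strand: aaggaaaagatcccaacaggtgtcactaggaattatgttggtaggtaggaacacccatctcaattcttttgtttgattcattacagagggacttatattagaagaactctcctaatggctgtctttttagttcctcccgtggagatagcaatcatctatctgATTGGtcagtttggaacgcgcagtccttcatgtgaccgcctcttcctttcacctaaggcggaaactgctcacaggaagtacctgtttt
COX7B, chrX:77899218-77899467, plus strand: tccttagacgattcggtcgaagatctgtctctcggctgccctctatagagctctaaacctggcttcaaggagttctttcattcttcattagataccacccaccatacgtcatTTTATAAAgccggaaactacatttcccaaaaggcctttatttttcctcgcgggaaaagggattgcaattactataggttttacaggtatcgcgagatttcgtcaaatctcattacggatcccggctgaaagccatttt
COX7A2 inner start, chr6:75243802-75244051, minus strand: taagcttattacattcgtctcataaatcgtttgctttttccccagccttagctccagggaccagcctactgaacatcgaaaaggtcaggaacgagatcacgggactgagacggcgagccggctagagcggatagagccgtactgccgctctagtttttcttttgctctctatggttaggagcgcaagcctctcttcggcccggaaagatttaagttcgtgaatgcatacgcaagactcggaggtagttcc
COX7A2 outer start, chr6:75250299-75250548, minus strand: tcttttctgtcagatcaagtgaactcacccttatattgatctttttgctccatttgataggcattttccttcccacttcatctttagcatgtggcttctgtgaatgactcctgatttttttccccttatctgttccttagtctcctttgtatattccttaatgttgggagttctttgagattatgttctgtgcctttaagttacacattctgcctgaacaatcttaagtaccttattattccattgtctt
The windows of COX8A, COX6B1 and COX6A1 hold the ETS letters, read on the opposite strand as CTTCCGG, within 20 bases of the start, and those of COX8C, COX6B2, COX6A2 and COX7B2 do not. The ubiquitous COX7B and both starts of COX7A2 lack these letters as well. The NRF1 letters are palindromic but for their last base, so that the run CGCATGCG in COX6A1 counts on both strands, and the TATA letters of COX7B likewise overlap on both strands.

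Over the whole window of 300 bases, 250 before and 50 after the start, the CpG content was lower at the restricted isoform in 3 of 4 pairs. The ratio of observed to expected CpG was 0.383 at COX8C, 0.247 at COX6A2, 0.520 at COX7B2 and 0.799 at COX6B2. It was 0.793 at COX8A, 0.868 at COX6A1, 0.979 at COX7B and 0.664 at COX6B1. COX6B2 thus exceeded its counterpart, although its folds were lower, 5.51 against 24.3 for H3K27ac and 46.4 against 70.0 for H3K4me3. Of the 2 marked restricted isoforms COX6B2 had the stronger H3K4me3, in an interval that also holds an end of GARIN5B. A link between CpG content and marks was not tested. At COX7A2 it was 1.10 at the marked inner start and 0 at the unmarked outer start, a window with no CpG. At NDUFA5 it was 0.710 at the marked inner start and 0.227 and 0.234 at the outer ones, and at COX7A2L 0.735 and 0.284. The median over all coding windows was 0.738, with 0.821 at genes with both marks and 0.332 at genes with neither.

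The promoter windows of the 70 members held the letters of 3 factors more often than those of all marked genes. The YY1 letters were in 23 of 83 windows (27.7%), against 9.53% of 14017 windows of genes with both marks and 6.99% of all 22132 coding windows. The NRF1 letters were in 15 (18.1%), against 5.78% and 4.63%. The ETS letters were in 22 (26.5%), against 17.6% and 12.8%. SP1 (62.7%, against 67.2% and 56.3%), NFY (34.9%, against 34.7% and 34.6%) and TATA letters (8.43%, against 6.10% and 9.46%) were near the shares of all windows. These are matches of letters and not sites, windows of 1 gene can overlap, and the YY1 letters contain ATG, which the 50 bases after the start can hold as a start codon. No test was made of these shares.

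The letters were not spread evenly over the complexes. Complex I held the YY1 letters in 16 of 39 windows (41.0%), among them NDUFS1, NDUFS3, NDUFS7, NDUFS8, NDUFV2 and NDUFV3, and the ETS letters in 5 (12.8%). Complex V held the ETS letters in 7 of 18 (38.9%), the NRF1 letters in 5 (27.8%) and the YY1 letters in 2 (11.1%). In complex II the windows of SDHB and SDHD held the letters of all 3 factors. COX6A1 and ATP5PF were the other members with the letters of all 3, and COX6A1 combined them with the lowest H3K27ac and H3K4me3 folds of the counterparts. Among the members without a promoter window were UQCRHL, NDUFS5, SDHC, ATP5MC3, NDUFB5, ATP5MF, ATP5MF-PTCD1, UQCRB, COX6C, NDUFB9, NDUFC2, ATP5F1B, ATP5F1D, COX7A1, COX4I2 and ATP5MGL.

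**Figure D5:**
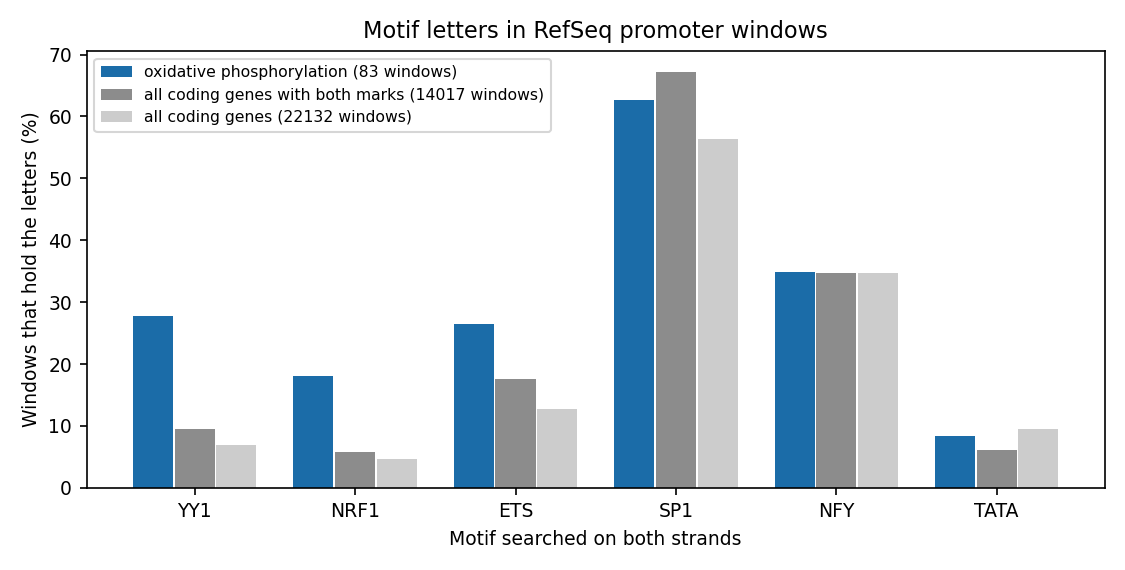
Share of 300-base RefSeq promoter windows (vertical axis, percent, starting at 0) that hold each motif's letters on either strand, for the members (blue, 83 windows), for all coding genes with both marks (dark grey) and for all coding genes (light grey). The blue bars stand above both grey bars for YY1 (27.7%), NRF1 (18.1%) and ETS (26.5%) and close to them for SP1, NFY and TATA.

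Many members share their marked interval with a neighbour. The strongest interval held an end of another protein-coding gene at 37.2% of members with H3K27ac and 48.1% of those with H3K4me3, against 24.0% and 27.3% of all genes with a peak. Without the readthrough records and their partners the shares were 33.8% and 45.2%. Some of these neighbours also serve mitochondria, as MRPL36 beside NDUFS6, MRPL47 beside NDUFB5 and TIMM8B beside SDHD, and others belong to translation, as RPS28 beside NDUFA7 and EEF1B2 beside NDUFS1. These are picked examples from neighbours that also include TSSK6, AKAP3 and GDF9, and the share of each kind was not counted. In a shared interval the signal of the member and that of its neighbour cannot be told apart.

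Members on chromosomes 8 and 15 had more fragments and more background. KBM7 is known to carry an extra copy of chromosome 8 and of a part of chromosome 15. NDUFB9, UQCRB and COX6C on chromosome 8 and COX5A on chromosome 15 had 177 to 249 H3K27ac fragments at the summit (median 189.5), against 21 to 215 (median 132) at the other 74 members with a peak. Their expected background was 8.09 to 10.9, against a median of 3.88, and their median fold was 19.3, against 25.8. For H3K4me3 they had 301 to 331 fragments, against 44 to 301, and a median fold of 48.1, against 71.6. By their medians the 4 genes were thus higher in fragments and lower in fold, and the part that copy number plays was not tested.

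Super-enhancers, long regions of joined H3K27ac peaks in the authors' deposited table, touched 3 members (background 2.92%), and 2 were named there as the target (background 2.25%). NDUFV2 was the target of one of 50.665 kb at chr18:9068415-9119079, with rank 233 and a ratio of H3K27ac to input signal of 6.33. The region over ATP5F1D, 35.425 kb at chr19:1232392-1267816 with rank 136, was assigned to MIDN and had a ratio of 13.7. The median ratio of the table was 8.11, above that of the region assigned to NDUFV2 and below that of the region over ATP5F1D. Per the name of the deposited table, targets were chosen by shared topological domain, closeness and highest expression in a measurement of newly made RNA.

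Genes that build or regulate the complexes were also marked in most cases. Both marks were found at 48 of 48 assembly factors, against 60.4% of all protein-coding genes. The median folds of the assembly factors were 21.8 for H3K27ac and 65.8 for H3K4me3, against 22.95 and 63.0 over all marked genes. Their lowest H3K27ac fold was 7.75, at SURF1. Both marks were also found at 4 of 4 subunit genes that the symbols miss, CYC1, CYCS, NDUFAB1 and COXFA4. Of 12 regulators of respiration 11 had both, with median folds of 37.2 for H3K27ac and 73.0 for H3K4me3 and a median H3K4me3 width of 3860 bp, against 25.2, 70.7 and 2753 bp for the oxidative phosphorylation genes. YY1 had folds of 48.2 for H3K27ac and 91.2 for H3K4me3, GABPB1, which encodes the other subunit of GABP, had 45.3 and 73.9, and ESRRA had 39.6 and 91.7. NRF1 had lower folds of 23.4 and 60.4. TFAM, which packages mitochondrial DNA and takes part in its transcription, had 22.1 and 56.0. PPARGC1A, the inducible coactivator of mitochondrial biogenesis, had H3K4me3 alone, with a fold of 35.8 and 126 fragments, whereas its relative PPARGC1B had 37.2 and 85.6.

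Other groups of general upkeep gave similar shares. Both marks were found at 84 of 87 cytosolic ribosomal protein genes (96.6%) and at 44 of 50 proteasome genes (88.0%). The share was 88.5% for the oxidative phosphorylation genes and 60.4% for all protein-coding genes. The proteasome genes were taken by symbol, PSMA to PSMG and a digit, so not all need be subunits of the proteasome. The median H3K27ac folds were 25.2 for oxidative phosphorylation, 27.3 for ribosomal proteins and 24.4 for the proteasome, and the median H3K4me3 folds 70.7, 66.0 and 71.6. The median H3K4me3 width was 2753 bp for oxidative phosphorylation, 4218.5 bp for ribosomal proteins and 3032 bp for the proteasome, and 2555 bp over all genes with a peak. By width, but not by fold, the oxidative phosphorylation genes were thus nearer to all marked genes than to the ribosomal protein genes, with no test made.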

How the data were processed

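ChIP-seq of H3K27ac and H3K4me3 in KBM7 cells gave 1 deposited peak list per mark. Bowtie2 2.3.4, bedtools 2.20.1 and the build hg38 are named per the submitters' processing notes, and no peak caller is named there. Each deposited list gives a fold enrichment at the summit, a −log10 p-value, a −log10 q-value and a score that equals 10 times the −log10 q-value. The lowest −log10 q-values are 1.32 and 1.33, so the authors' lists end near a q-value of 0.05. The deposited table of super-enhancers gives H3K27ac and input signal, whose scaling the labels leave unstated. Here the input library was read only through that table. Whether the authors' folds were computed against the input is not stated. No interval given here covers error in the expected backgrounds.

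From these files, whole-number fragments at each summit and the expected background were recovered by taking the fold as (fragments + 1)/(expected + 1) and the p-value as the upper Poisson tail. This fitted 100% of rows within 0.01 on the −log10 scale. Members' peaks lay within 1 kb of either end of the RefSeq record (GRCh38.p14), with an overlap of at least 1 bp, and the highest fold stands for a gene. Start sites, strands and promoter sequences came from the RefSeq promoter table, which matched 70 of 87 members. Python 3.11.15, pandas 2.3.3, NumPy 2.4.6, SciPy 1.17.1 and matplotlib 3.10.9 were used, and the steps were tested on simulated data.

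No test was made, since each mark has 1 library. Genes were named if they were isoforms or copies with their counterparts, had the highest or lowest fold of a complex, lacked a mark, had one of the 5 widest or narrowest intervals, met a super-enhancer, lay on chromosome 8 or 15 or were catalytic cores. Other genes named as neighbours, motif holders or list members were chosen after their values were seen. The members, lists and alternatives were chosen with earlier results of these data known. Kinases and readthrough records that the ribosomal symbols matched were left out after their values were seen. One member that this rule would name is not reported here.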

Additional observations from a re-analysis of the deposited data

How the results depend on the processing

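No paired analysis was possible because each mark has 1 library. The alternatives were windows of 500 bp and 2 kb, the whole gene record, listed starts only, the upper 50% of each list by fold, a −log10 q of at least 10, the peak nearest to an end, and leaving out readthrough records with derived copies or the members on chromosomes 8 and 15. Under them the number of members with both marks ranged between 68, of the 70 with a listed start, and 81, in the whole gene record, and the restricted isoforms with both marks numbered 2, of 6, or of the 4 with a listed start. Taking the peak nearest to an end was tried for the medians of fold and width and leaves these counts as they are, since it changes only which peak stands for a gene. The ubiquitous counterparts with both marks numbered 5 or 6. The median H3K27ac fold of the members ranged between 23.4, for the peak nearest to an end, and 26.03, and the median H3K4me3 fold between 69.3 and 71.6. Each alternative median of fold or width lay within the 95% order-statistic interval of its main value. That interval reflects the spread over genes, and the settings mostly reuse the same genes and peaks, so it does not measure robustness. What depth limits is the absence of a peak: the total reads per library are unknown here, and the weakest listed peaks hold 9 fragments for H3K27ac and 8 for H3K4me3, so weaker enrichment at the unmarked isoforms was not detectable. A fold depends on the local background, as at ATP5F1A and on chromosome 8, and a peak at a gene end may be a neighbour's.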
